A study of Homo sapiens with 24 samples.

Results

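The 40 genes described here encode the enzymes and transporters of glycolysis together with other transcripts known to respond to hypoxia-inducible factor (HIF). They were chosen by name, and each symbol mapped to 1 of the 60675 Ensembl identifiers counted. They comprise 16 glycolytic enzymes, 4 transporters, 3 regulators of flux, 2 HIF alpha subunits, 14 other HIF targets and TXNIP, and all 40 passed edgeR's filter on low counts in both lines. RNA was sequenced from MDA-MB-231 and MDA-MB-436, established cell lines from triple-negative breast cancers, as 24 libraries in 8 groups of 3. In each line, cells labelled as carrying a short hairpin RNA (shRNA) against MDM2 were set against cells with a non-targeting shRNA (NT shRNA). In each line, cells given YX-2-30, labelled an MDM2 PROTAC, were likewise set against cells given its vehicle DMSO. All groups were grown in DMEM with serum and antibiotics, and no hypoxic exposure is named. MDM2 is a ubiquitin ligase, an shRNA lowers a matching transcript, and a PROTAC brings its target protein to a ubiquitin ligase for degradation. The dose and time of the PROTAC and the hairpin sequence are not given in the sources used here. The labels do not say whether replicate libraries started from different dishes of cells, and the p-values below measure only the spread between libraries, which may be technical.

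Glycolysis breaks glucose down to pyruvate, and lactate dehydrogenase and the monocarboxylate transporters turn pyruvate into lactate and carry it out of the cell. HIF is a transcription factor whose alpha subunits are hydroxylated and degraded when oxygen is present. When oxygen is low it binds short promoter and enhancer elements with the core ACGTG or GCGTG and raises glucose transporters, most glycolytic enzymes, angiogenic factors and mitophagy receptors. TXNIP works in the opposite direction on sugar supply: it is induced through MondoA when glucose metabolites accumulate, and it restrains glucose uptake. Many cancer cells express glycolytic genes at high levels in the presence of oxygen.

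Library totals ran from 33413988 to 174744841 counts. Levels are in CPM, counts scaled to a common library size with TMM factors, so they are shares of the RNA counted. As these are bulk samples, fewer cells of a kind and less RNA per cell cannot be told apart. The targeted transcript was not lower, by the test, in the libraries labelled MDM2 shRNA. MDM2 was at 24.8, 23.8 and 30.9 CPM in MDA-MB-231 libraries labelled MDM2 shRNA and at 20.0, 22.9 and 11.5 CPM in NT shRNA libraries (adjusted p = 0.137). In MDA-MB-436 it was at 14.7, 28.04 and 26.8 CPM in libraries labelled MDM2 shRNA and at 21.5, 29.9 and 24.3 CPM in NT shRNA libraries (adjusted p = 0.78). A PROTAC acts on protein, so its MDM2 transcript is no check of it. Libraries labelled MDM2 shRNA and PROTAC libraries of a line were about as alike as libraries of 1 group, although the agents differ. Over 13058 genes averaging more than 200 counts, the SD of the log2 difference between libraries had a median of 0.39 between MDM2 shRNA and PROTAC libraries and 0.38 within these groups in MDA-MB-436, against 0.65 between treated and control libraries. In MDA-MB-231 the medians were 0.33, 0.32 and 0.48 in the same order, and in both lines each pair of a treated with a control library differed by more than any other pair. The agreement of the hairpin label with the PROTAC in the results below is therefore not given as support for either, and its origin was not tested. The labels call the cells epithelial: KRT8 and KRT18, keratins of simple epithelia, were abundant in both lines, while CDH1, the epithelial cadherin, was under 1 CPM and VIM, a mesenchymal filament gene, was abundant. KRT19, another keratin, averaged 342.3 to 376.4 CPM in the groups of MDA-MB-231 but 0.2082 to 0.8629 CPM in those of MDA-MB-436. Summed over 7 breast epithelial markers, treated MDA-MB-436 libraries held 471.3 to 615.7 CPM and controls 848.1 to 1159 CPM, while treated MDA-MB-231 libraries held 1068 to 1124 CPM and controls 1149 to 1242 CPM. In MDA-MB-436 KRT8 and KRT18 fell, averaging 280.2 and 250.5 CPM with the MDM2 shRNA label against 576.7 and 443 CPM with NT shRNA. KRT7, EPCAM and CD24 rose there, averaging 24.95, 6.23 and 14.82 CPM with the label against 8.94, 4.21 and 11.28 CPM with NT shRNA. Against DMSO, PROTAC libraries of that line differed in the same directions. In MDA-MB-231 KRT7 averaged 149 CPM with the label against 230.9 CPM with NT shRNA, and CD24 20.54 against 11.47 CPM. With the PROTAC in MDA-MB-231, KRT7 averaged 143.2 CPM against 226.4 CPM with DMSO, and CD24 25.48 against 9.487 CPM. Over 5 fibroblast markers the sum was 35.24 to 40.18 CPM in treated and 18.46 to 22.88 CPM in control MDA-MB-231 libraries, nearly all from COL1A1 and PDGFRB, and 6.827 to 9.561 CPM in treated and 4.544 to 6.36 CPM in control MDA-MB-436 libraries. DCN, another of the 5, was at 0 counts in all 24 libraries. Over 5 mesenchymal markers the sum was 4834 to 5145 CPM in treated and 7449 to 9114 CPM in control MDA-MB-231 libraries. In MDA-MB-436 the mesenchymal sum was 1304 to 1409 CPM in treated and 1840 to 2106 CPM in control libraries. FN1 among these markers rose in MDA-MB-231. The mitochondrial share of counts was 4.32 to 4.42% in treated and 5.46 to 5.87% in control MDA-MB-436 libraries, and 4.37 to 4.58% in treated and 4.65 to 5.11% in control MDA-MB-231 libraries. The 10 most abundant genes held 5.33 to 5.61% of counts in treated and 6.82 to 7.39% in control MDA-MB-436 libraries, and the part of these and the marker shifts in the results below was not tested.

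Most of the glycolytic enzymes fell in treated MDA-MB-436 cells. In libraries labelled MDM2 shRNA, 14 of the 16 enzymes were lower than in NT shRNA libraries, ENO2 was higher and PFKL did not pass the test (edgeR's quasi-likelihood test, adjusted p under 0.05 over all genes). With the PROTAC, 13 were lower than with DMSO, PFKL was higher, and ALDOA and ENO2 did not pass. Of all 22663 genes tested in this line, 14.4% were called lower and 16% higher with the MDM2 shRNA label, and 15.1% lower and 17.3% higher with the PROTAC. The median log2 change over the 16 enzymes was -0.54 with the MDM2 shRNA label and -0.58 with the PROTAC, against 0.04 over all genes tested in each comparison. Glycolytic enzymes are abundant, and abundant genes fell more often than others. Among the 2434 genes that averaged at least 100 CPM over the 24 libraries, a class set after the data were seen, 42.4% and 42.8% were called lower in the same order, with median log2 changes of -0.21 and -0.20.

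In MDA-MB-231 fewer enzymes passed the test. With the MDM2 shRNA label, 6 of 16 were lower, PGAM1 was higher and 9 did not pass. With the PROTAC, 7 were lower, PGAM1 was higher and 8 did not pass. Over all 20675 genes tested there, 11.6% were called lower and 11.1% higher with the MDM2 shRNA label, and 11.5% lower and 11.1% higher with the PROTAC. Among genes that averaged at least 100 CPM, 27.5% and 25.2% were called lower in the same order. The enzymes' median log2 change was -0.11 with the MDM2 shRNA label and -0.17 with the PROTAC, against 0.01 and -0.01 over all genes. Without TMM scaling these medians moved to -0.01 and -0.08, while the median of all genes moved to 0.11 and 0.08.

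**Figure D1:**
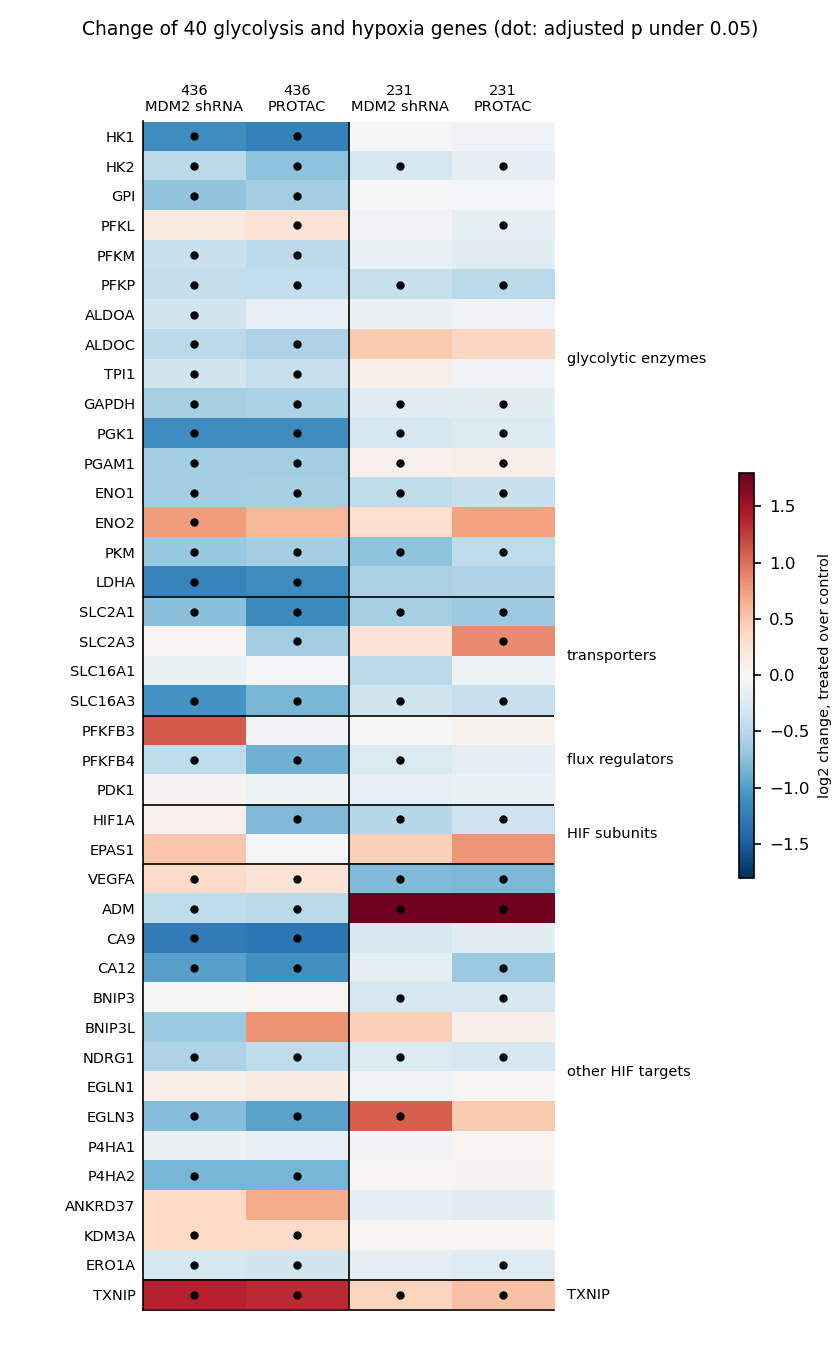
Log2 change (colour) of the 40 genes in rows, by role, in the 4 comparisons in columns: MDA-MB-436 and MDA-MB-231 (lines marked by their last digits), labelled MDM2 shRNA over NT shRNA and PROTAC over DMSO, with a dot where adjusted p is under 0.05. In MDA-MB-436, 14 and 13 of 16 enzymes are lower, while ADM is higher in MDA-MB-231 and lower in MDA-MB-436, and TXNIP is higher in all 4 columns.

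PGK1 makes ATP in the first payoff step of glycolysis (GRCh38 chrX:77910739-78129296, plus strand). It was at 507, 520 and 512 CPM in MDA-MB-436 libraries labelled MDM2 shRNA and at 1111, 1093 and 1161 CPM in NT shRNA libraries. PROTAC libraries had 497, 536 and 439 CPM, and DMSO libraries 1018, 1080 and 1065 CPM. The groups did not overlap, and the treated level of PGK1 was under that of control in each of the 6 treated libraries. Its log2 change was -1.11 ± 0.05 in both comparisons (SE; adjusted p = 1.17e-07 with the MDM2 shRNA label and 1.15e-07 with the PROTAC), a level 0.462 and 0.463 times that of control. In MDA-MB-231, PGK1 was at 530, 496 and 516 CPM with the MDM2 shRNA label and at 639, 628 and 648 CPM with NT shRNA, a log2 change of -0.31 ± 0.03. The PROTAC libraries of that line had 534, 510 and 522 CPM, against 622, 617 and 619 CPM with DMSO, a log2 change of -0.25 ± 0.03. Those groups did not overlap either, so PGK1 fell in both lines and by more in MDA-MB-436. The treated levels of the lines lie close together, while their control levels lie far apart.

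LDHA reduces pyruvate to lactate (chr11:18394388-18408425, plus strand). In MDA-MB-436 it was at 246, 254 and 268 CPM with the MDM2 shRNA label, against 496.5, 469 and 831 CPM with NT shRNA, a log2 change of -1.20 ± 0.17 (adjusted p = 0.000219). PROTAC libraries had it at 266, 242.5 and 214 CPM, against 477, 537 and 540 CPM with DMSO, a log2 change of -1.11 ± 0.17 (adjusted p = 0.000345). All 6 treated libraries lie below all 6 controls. In MDA-MB-231 the groups overlapped with the MDM2 shRNA label, at 633, 712 and 603 CPM against 935, 675 and 1320 CPM with NT shRNA, and the change of -0.59 ± 0.22 did not pass (adjusted p = 0.0881). There the PROTAC libraries held 616.5, 678 and 454 CPM of LDHA and the DMSO libraries 953, 688 and 922 CPM (adjusted p = 0.106). DESeq2 called LDHA in both MDA-MB-231 comparisons, with log2 changes of -0.60 and -0.55.

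HK1 and HK2 are hexokinases, which trap glucose in the cell by phosphorylating it. HK1 (chr10:69269984-69401884, plus strand) was at 260, 271 and 262 CPM in MDA-MB-436 with the MDM2 shRNA label, against 557, 583 and 605 CPM with NT shRNA. PROTAC libraries held 216, 279 and 319 CPM of HK1, against 574, 567 and 754 CPM with DMSO. The log2 changes of HK1 were -1.12 ± 0.15 and -1.22 ± 0.15 (adjusted p = 0.000133 and 6.78e-05), and neither pair of groups overlapped. In MDA-MB-231 HK1 ranged from 196.6 to 270.5 CPM over the 12 libraries, with log2 changes of 0.00 ± 0.16 and -0.06 ± 0.16. HK2, the inducible hexokinase, fell in all 4 comparisons. Its log2 changes in MDA-MB-436 were -0.49 ± 0.10 with the MDM2 shRNA label and -0.74 ± 0.10 with the PROTAC. In MDA-MB-231 they were -0.32 ± 0.05 with the MDM2 shRNA label and -0.18 ± 0.05 with the PROTAC (adjusted p = 0.0163), and the last call was lost without TMM scaling and without DMSO replicate 1, PROTAC replicate 2 or PROTAC replicate 3.

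**Figure D2:**
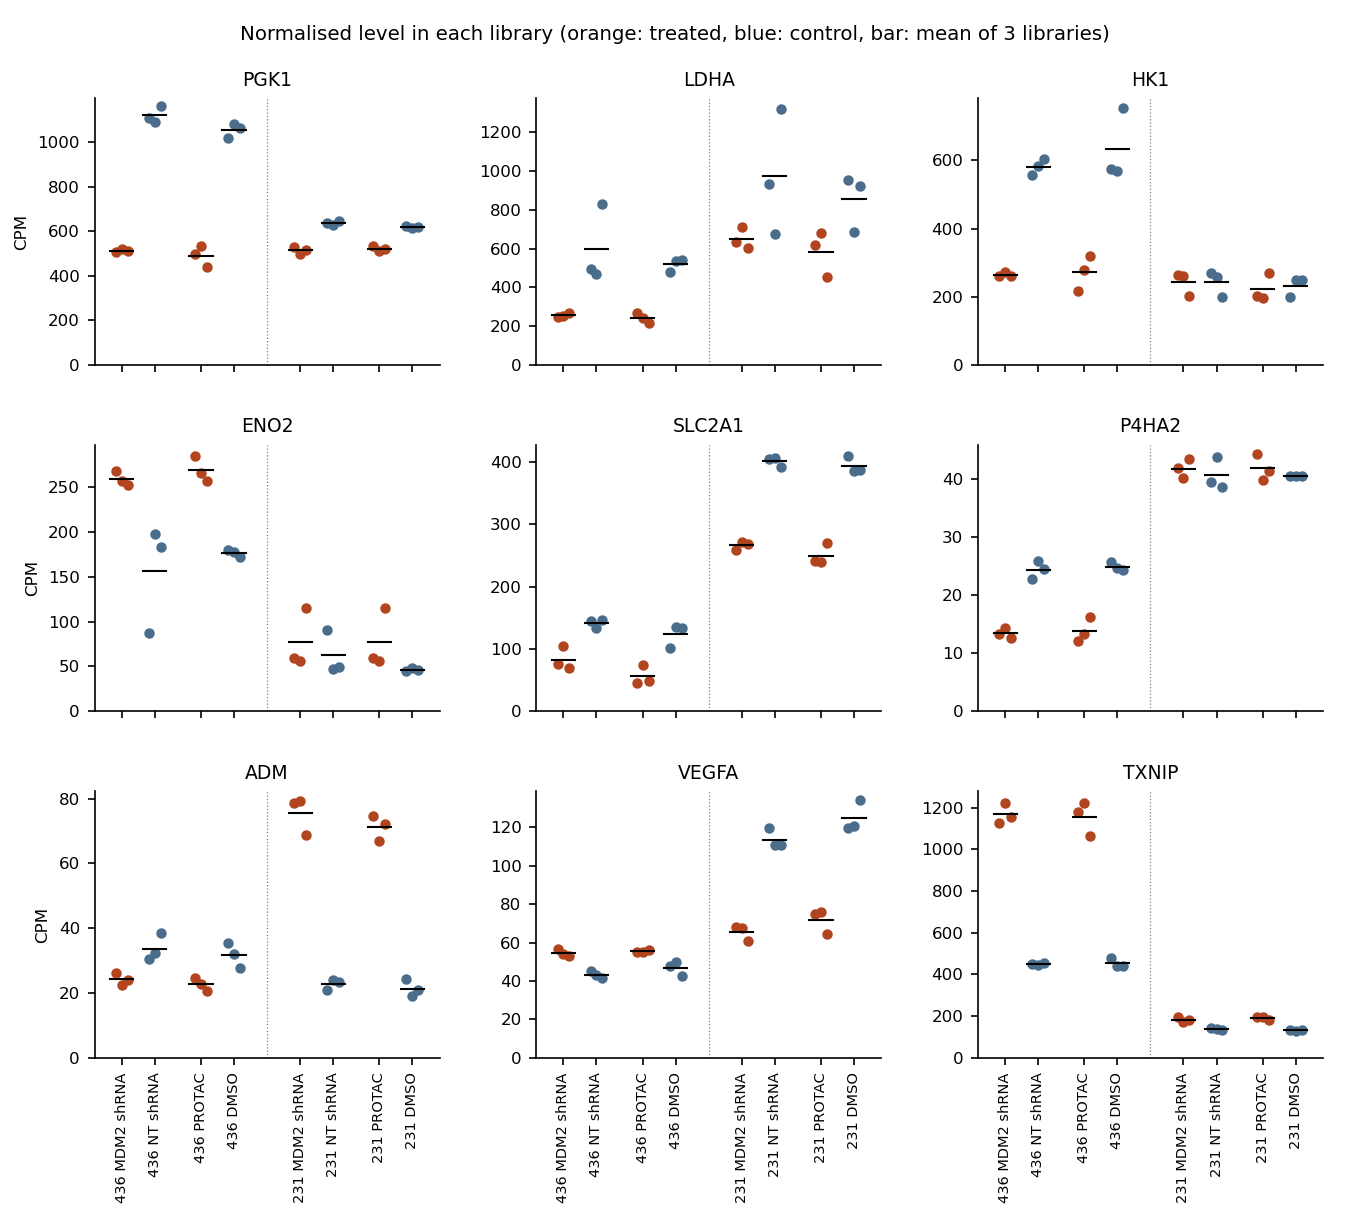
Level in CPM (vertical axes, from 0) of 9 genes in each of the 24 libraries, in 8 groups of 3 along the horizontal axes. Treated MDA-MB-436 libraries hold 439 to 536 CPM of PGK1 against 1018 to 1161 CPM in controls, and ADM is at 66.8 to 79.2 CPM in treated against 19.1 to 24.2 CPM in control MDA-MB-231 libraries.

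The remaining enzymes are given along the pathway. GPI, which interconverts glucose and fructose phosphates, fell in MDA-MB-436 with log2 changes of -0.71 ± 0.08 and -0.62 ± 0.08, and was at 0.00 ± 0.04 and -0.03 ± 0.04 in MDA-MB-231. Phosphofructokinase, the committed step, has liver (PFKL), muscle (PFKM) and platelet (PFKP) genes. PFKP was lower in all 4 comparisons, with log2 changes from -0.48 to -0.42. PFKM was lower in both MDA-MB-436 comparisons, at -0.41 ± 0.11 and -0.47 ± 0.11, but both calls were lost without TMM scaling and the first also without NT shRNA replicate 1 or labelled MDM2 shRNA replicate 3. PFKL moved the other way in MDA-MB-436, at 126, 138 and 111 CPM with the PROTAC against 104, 110 and 99.2 CPM with DMSO. That change of 0.25 ± 0.07 passed (adjusted p = 0.0152), that with the MDM2 shRNA label of 0.18 ± 0.07 did not (adjusted p = 0.075), and in MDA-MB-231 PFKL was lower with the PROTAC at -0.16 ± 0.05. Both PFKL calls are weak: the MDA-MB-436 call was lost without DMSO replicate 3 or PROTAC replicate 2, and that in MDA-MB-231 without any of 5 of its 6 libraries.

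ALDOA, the main aldolase, was called lower only in the MDA-MB-436 comparison with the MDM2 shRNA label, at -0.34 ± 0.11, while the PROTAC value was -0.15 ± 0.11. The call of ALDOA was lost without TMM scaling and without any of 4 of the 6 libraries (NT shRNA replicates 2 and 3, labelled MDM2 shRNA replicates 2 and 3). ALDOC, the brain aldolase, fell in MDA-MB-436 with log2 changes of -0.49 ± 0.13 and -0.56 ± 0.13, the first of which was lost without TMM scaling, NT shRNA replicate 3 or labelled MDM2 shRNA replicate 1. TPI1, triose phosphate isomerase, fell in MDA-MB-436 with log2 changes of -0.32 ± 0.10 and -0.42 ± 0.10. The first of the TPI1 calls was lost without any library but NT shRNA replicate 1, and both without TMM scaling. GAPDH, which couples triose oxidation to NADH, averaged 3091 ± 213 CPM with the MDM2 shRNA label and 4715 ± 427 CPM with NT shRNA in MDA-MB-436 (SD, n = 3 each). PROTAC libraries averaged 2871 ± 589.9 CPM of GAPDH and DMSO libraries 4229 ± 169 CPM. Its log2 changes were -0.59 ± 0.11 and -0.57 ± 0.11 in MDA-MB-436 and -0.21 ± 0.06 and -0.20 ± 0.06 in MDA-MB-231. The GAPDH calls of MDA-MB-231 were lost without TMM scaling, with a replicate block, and without most single libraries.

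PGAM1, phosphoglycerate mutase, fell in MDA-MB-436 with log2 changes of -0.62 ± 0.08 and -0.62 ± 0.07, and the groups did not overlap. In MDA-MB-231 it was at 762.5, 756 and 755.5 CPM with the MDM2 shRNA label against 722, 716 and 712.5 CPM with NT shRNA. The PROTAC libraries had 761, 744 and 757.5 CPM of PGAM1 against 704, 697 and 727 CPM with DMSO. These groups did not overlap, yet the rise was slight, at 0.08 ± 0.03 and 0.09 ± 0.03, and both calls were lost under most alternatives. ENO1, the main enolase, averaged 1611 ± 29.8 CPM with the MDM2 shRNA label and 2480 ± 166.5 CPM with NT shRNA in MDA-MB-436, and it fell in all 4 comparisons with log2 changes from -0.60 to -0.40. PKM, which makes pyruvate and ATP in the last step, fell in all 4 as well. Its log2 changes were -0.68 ± 0.06 and -0.62 ± 0.06 in MDA-MB-436 and -0.72 ± 0.08 and -0.45 ± 0.08 in MDA-MB-231.

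ENO2, the neuronal enolase (chr12:6913745-6923698, plus strand), had, like PFKL, log2 changes above 0 in MDA-MB-436, where those of the other enzymes were below 0. It was at 268, 256 and 252 CPM with the MDM2 shRNA label and at 87.1, 197 and 183 CPM with NT shRNA. PROTAC libraries held ENO2 at 285, 265.5 and 256.5 CPM, against 180, 177 and 172 CPM with DMSO. All 6 treated libraries were above all 6 controls, and the first NT shRNA library was lowest. The log2 change of 0.75 ± 0.22 with the MDM2 shRNA label passed (adjusted p = 0.0214), and that of 0.60 ± 0.22 with the PROTAC did not (adjusted p = 0.0533). Leaving out any of the libraries labelled MDM2 shRNA ended the first call, with log2 changes of 0.72 to 0.76, while DESeq2 called the second at 0.60. Set per kilobase of exon, ENO2 made up 16.7, 16.5 and 16.3% of ENO1 and ENO2 together with the MDM2 shRNA label, against 4.41, 9.01 and 7.84% with NT shRNA. With the PROTAC its share was 19.0, 16.9 and 21.3%, against 9.63, 8.98 and 9.19% with DMSO. With 3 libraries a side an exact permutation test of a share cannot go below p = 0.1, so these shares carry no test.

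Other isoform shares in MDA-MB-436 also moved without overlap between groups. PFKL made up 20.3 ± 0.03% of the 3 phosphofructokinase genes per kilobase with the MDM2 shRNA label and 14.4 ± 0.41% with NT shRNA (SD, n = 3 each). The PFKL share was 20.0 ± 0.18% with the PROTAC and 13.4 ± 0.38% with DMSO. HK2 made up 23.8 ± 0.51% of the hexokinase pair with the MDM2 shRNA label and 16.7 ± 0.49% with NT shRNA, and 21.7 ± 1.98% with the PROTAC and 16.7 ± 1.83% with DMSO. HK2 itself fell in both comparisons, with smaller log2 changes than HK1. In MDA-MB-231 the PFKL share also rose without overlap. It was 13.2 ± 0.28% with the MDM2 shRNA label against 10.8 ± 0.33% with NT shRNA, and 12.6 ± 0.29% with the PROTAC against 10.5 ± 0.21% with DMSO. The ENO2 share there was 2.33 to 4.54% with the PROTAC against 1.43 to 1.53% with DMSO, but overlapped with the label. The HK2 share overlapped in both MDA-MB-231 comparisons.

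**Figure D3:**
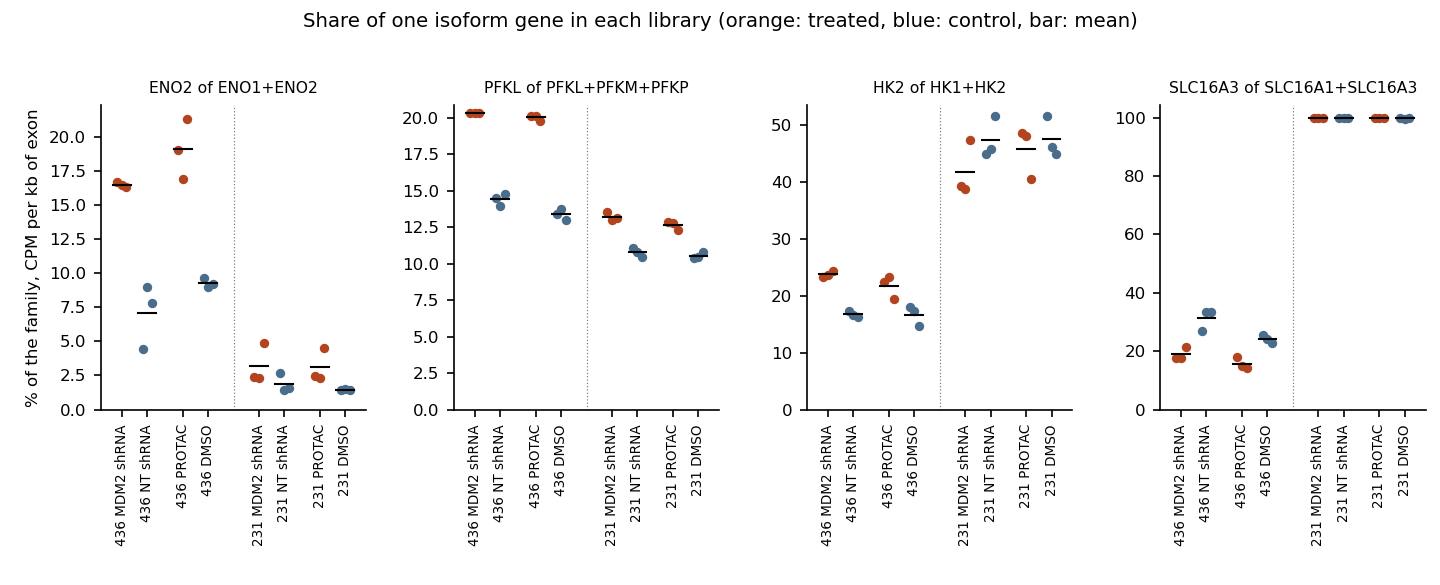
Share in percent (vertical axes, from 0), computed per kilobase of exon, of ENO2, PFKL, HK2 and SLC16A3 in their gene families for each library of the 8 groups. In MDA-MB-436 the ENO2 share is 16.3 to 21.3% in treated and 4.41 to 9.63% in control libraries, and SLC16A3 holds nearly all of its pair in MDA-MB-231 only.

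Summed over the 16 enzymes, MDA-MB-436 libraries labelled MDM2 shRNA held 9049 to 9369 CPM and NT shRNA libraries 13327 to 15454 CPM. PROTAC libraries of MDA-MB-436 held 7177 to 9285 CPM and DMSO libraries 12444 to 13215 CPM. The lowest sum was that of PROTAC replicate 3, the library with the fewest counts. In MDA-MB-231 the sums were 11316 to 11975 CPM with the MDM2 shRNA label and 14072 to 15142 CPM with NT shRNA. They were 11534 to 11864 CPM with the PROTAC and 13524 to 14428 CPM with DMSO. The treated sums lie below the control sums in all 4 comparisons, and GAPDH and ENO1 are the largest contributors to each. The 14 other HIF targets together held 892.8 to 924.5 CPM with the MDM2 shRNA label and 924 to 1022 CPM with NT shRNA in MDA-MB-436. With the PROTAC they held 924.6 to 944.9 CPM and with DMSO 920.8 to 957 CPM, so the groups overlapped in both comparisons. BNIP3 and EGLN1, neither of which passed in that line, weigh most in these sums, averaging 310.9 and 198.7 CPM with the MDM2 shRNA label. The sums therefore do not show the single targets, of which 7 of 14 were called lower in each of these comparisons. In MDA-MB-231 these targets held 905.8 to 1000 CPM with the MDM2 shRNA label and 961 to 1070 CPM with NT shRNA, which overlapped. They held 888.3 to 967.8 CPM with the PROTAC and 996.8 to 1034 CPM with DMSO, which did not overlap.

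**Figure D4:**
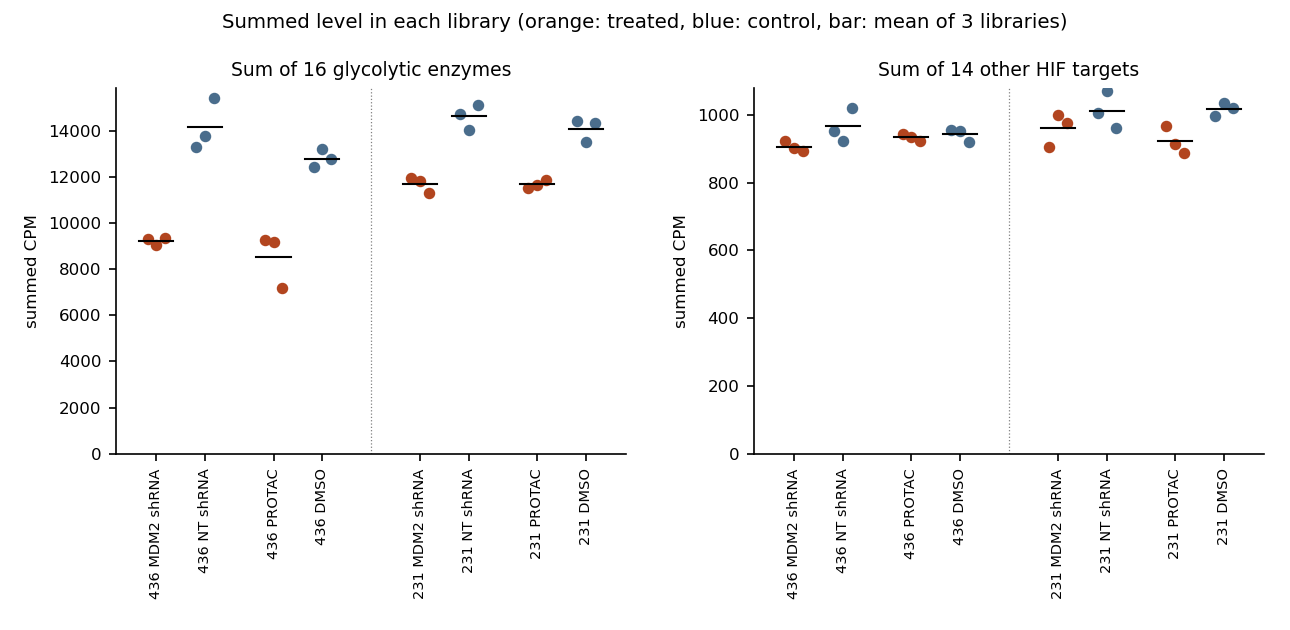
Summed CPM (vertical axes, from 0) of the 16 glycolytic enzymes (left) and of the 14 other HIF targets (right) in each library of the 8 groups. Enzyme sums of treated MDA-MB-436 libraries are 7177 to 9369 CPM against 12444 to 15454 CPM in controls, whereas sums of the other HIF targets lie between 892.8 and 1022 CPM in all 12 libraries of that line. BNIP3 and EGLN1, not called there, weigh most in the latter, while 7 of the 14 targets were called lower in each comparison of that line.

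To show how the core element recognised by HIF is placed in these genes, the 250 bases before annotated transcription starts were taken from RefSeq promoter windows (GRCh38.p14), which held 35 of the 40 genes with 64 windows. VEGFA, SLC2A3, SLC16A1, BNIP3L and NDRG1 had no entry. ACGTG, read on both strands, was present in 37.5% of the 64 windows and in 18.5% of all 35116 windows of the table. Either ACGTG or GCGTG was present in 62.5% and 43.2%. For the 16 enzymes the shares were 38.9% for ACGTG and 52.8% for either core (36 windows), and for the 11 other HIF targets with an entry 50% and 83.3% (12 windows). Counted by gene the order turns, since enzymes have more windows per gene. ACGTG was in at least 1 window of 68.75% of the 16 enzymes and 54.55% of the 11 other targets. Either core was in 87.5% and 81.82% of these genes. Windows of a gene can overlap, and a match in letters is no evidence of binding. The 5 windows below are shown because their genes bear on the contrast: PGK1 and LDHA fell in MDA-MB-436 and hold a core, ENO2 holds a core and was higher there, BNIP3 holds cores and did not pass there, and P4HA2 fell there with no core in the window. Capitals mark ACGTG and GCGTG, or their reverse complements CACGT and CACGC, and CACGTG counts on both strands.
PGK1: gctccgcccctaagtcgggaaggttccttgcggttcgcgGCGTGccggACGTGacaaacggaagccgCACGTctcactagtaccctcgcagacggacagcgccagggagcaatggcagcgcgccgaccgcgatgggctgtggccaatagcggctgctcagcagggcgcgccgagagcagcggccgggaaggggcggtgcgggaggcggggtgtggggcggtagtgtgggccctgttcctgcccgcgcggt
LDHA: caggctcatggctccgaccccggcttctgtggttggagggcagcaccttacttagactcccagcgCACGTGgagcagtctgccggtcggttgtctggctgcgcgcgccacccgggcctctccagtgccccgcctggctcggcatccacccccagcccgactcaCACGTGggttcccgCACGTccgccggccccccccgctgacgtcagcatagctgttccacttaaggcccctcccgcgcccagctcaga
ENO2: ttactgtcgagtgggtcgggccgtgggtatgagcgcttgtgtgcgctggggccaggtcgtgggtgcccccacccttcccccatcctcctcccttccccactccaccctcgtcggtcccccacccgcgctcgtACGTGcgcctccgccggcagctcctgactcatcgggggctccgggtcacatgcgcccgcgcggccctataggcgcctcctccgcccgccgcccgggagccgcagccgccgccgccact
BNIP3: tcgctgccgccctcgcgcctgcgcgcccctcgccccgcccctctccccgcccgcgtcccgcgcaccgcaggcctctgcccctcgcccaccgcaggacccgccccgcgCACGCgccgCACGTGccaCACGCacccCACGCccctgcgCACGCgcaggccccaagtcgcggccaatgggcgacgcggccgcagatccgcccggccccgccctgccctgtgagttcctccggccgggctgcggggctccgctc
P4HA2: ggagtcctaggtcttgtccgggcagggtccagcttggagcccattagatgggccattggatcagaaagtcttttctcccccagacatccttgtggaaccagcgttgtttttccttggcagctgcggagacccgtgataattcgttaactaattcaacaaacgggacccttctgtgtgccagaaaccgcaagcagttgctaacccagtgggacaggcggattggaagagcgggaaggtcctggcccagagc
The windows lie at chrX:78103998-78104247 (plus strand) for PGK1, chr11:18394313-18394562 (plus) for LDHA, chr12:6914330-6914579 (plus) for ENO2, chr10:131981924-131982173 (minus) for BNIP3 and chr5:132227092-132227341 (minus) for P4HA2. The PGK1 window holds 2 ACGTG and 1 GCGTG, and the LDHA window holds CACGTG 2 times and another ACGTG. The ENO2 window, whose gene moved opposite to PGK1 and LDHA in MDA-MB-436, holds 1 ACGTG. Among all 35 genes with an entry, 30 (85.7%) had either core in at least 1 window, as did 47.4% of the 27305 genes of the table. The 35 genes have more windows per gene (64 windows) than the table (35116 windows), which raises their share by gene. By window the shares were 62.5% and 43.2%.

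Among the transporters, SLC2A1 and SLC16A3 fell in all 4 comparisons, SLC16A1 passed in none, and SLC2A3 passed with the PROTAC only, in opposite directions in the lines. SLC2A1 encodes GLUT1, the main glucose transporter of many tumour cells (chr1:42925375-42959176, minus strand). In MDA-MB-436 it was at 76.1, 104 and 69.2 CPM with the MDM2 shRNA label, against 145.5, 134 and 146 CPM with NT shRNA (log2 change -0.76 ± 0.19, adjusted p = 0.0111). PROTAC libraries there had 45.4, 74.9 and 48.3 CPM and DMSO libraries 101, 136 and 134 CPM (log2 change -1.15 ± 0.19, adjusted p = 0.000826). In MDA-MB-231 SLC2A1 was at 259, 272 and 269 CPM with the MDM2 shRNA label and at 405, 407 and 392 CPM with NT shRNA. It was at 241, 239.7 and 269.5 CPM with the PROTAC and at 409.6, 385 and 388 CPM with DMSO. No pair of groups overlapped, and the log2 changes in MDA-MB-231 were -0.59 ± 0.05 and -0.66 ± 0.05 (adjusted p = 1.05e-05 and 4.92e-06). SLC2A3, the high-affinity transporter GLUT3, was lower with the PROTAC in MDA-MB-436 at -0.62 ± 0.20 and higher with the PROTAC in MDA-MB-231 at 0.86 ± 0.22. In MDA-MB-231 its PROTAC libraries had 14.01, 22.9 and 23.98 CPM and overlapped the DMSO libraries at 9.28, 15.3 and 9.09 CPM. Both SLC2A3 calls were lost without single libraries: adjusted p rose above 0.05 without DMSO replicate 1 or 3 or PROTAC replicate 2 or 3 in MDA-MB-231, and without any library but PROTAC replicate 3 in MDA-MB-436.

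SLC16A3 encodes MCT4, which exports lactate. In MDA-MB-436 it was at 75.3, 66.5 and 85.9 CPM with the MDM2 shRNA label against 138, 171 and 175 CPM with NT shRNA, a log2 change of -1.07 ± 0.15 (adjusted p = 0.000203). In PROTAC libraries it was at 78.2, 57.8 and 63.3 CPM against 135, 112 and 103 CPM with DMSO, a log2 change of -0.82 ± 0.15 (adjusted p = 0.00121). The groups did not overlap, and the smaller falls in MDA-MB-231, of -0.35 ± 0.05 and -0.41 ± 0.05, passed as well. SLC16A1 encodes MCT1, which carries lactate in either direction (chr1:112911847-112957013, minus strand). It was nearly absent from MDA-MB-231, at 0.106 to 0.769 CPM over 12 libraries, and at 182 to 233 CPM in MDA-MB-436, where the log2 changes were -0.12 ± 0.09 and -0.03 ± 0.09. SLC16A3 thus held 99.8 to 99.9% of the pair per kilobase in the group means of MDA-MB-231, whereas in MDA-MB-436 it held 19.0 ± 2.08% with the MDM2 shRNA label and 31.25 ± 3.69% with NT shRNA. The share was 15.7 ± 2.14% with the PROTAC and 24.2 ± 1.30% with DMSO. The size of these shares depends on the annotated exon lengths, 8995 bases for SLC16A3 and 5312 for SLC16A1. Without division by length, NT shRNA libraries of MDA-MB-436 averaged 161.5 CPM of SLC16A3 and 209.8 CPM of SLC16A1. Those with the MDM2 shRNA label averaged 75.91 and 191.5 CPM.

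Among regulators of flux, PFKFB4, a bifunctional enzyme that sets the level of fructose 2,6-bisphosphate, was lower in both MDA-MB-436 comparisons and with the MDM2 shRNA label in MDA-MB-231. With the PROTAC in MDA-MB-436 it was at 4.80, 5.25 and 3.26 CPM against 7.78, 8.95 and 7.37 CPM with DMSO, a log2 change of -0.86 ± 0.16. The call with the MDM2 shRNA label in MDA-MB-436, at -0.45 ± 0.16 (adjusted p = 0.0489), was lost whichever of its 6 libraries was left out, and that in MDA-MB-231 without NT shRNA replicate 2, labelled MDM2 shRNA replicate 2 or TMM scaling. PFKFB4 shares exon sequence on its own strand with UCN2. PFKFB3, the inducible isoform, did not pass in any comparison as fitted, and single libraries stood apart: MDA-MB-436 had 22.4, 46.9 and 64.4 CPM with the MDM2 shRNA label and 18.7, 22.9 and 21.2 CPM with NT shRNA (adjusted p = 0.102). That PFKFB3 change passed without labelled MDM2 shRNA replicate 1 (adjusted p = 0.0438), with the 6 libraries alone (adjusted p = 0.0447) and in 1 fit of 24 libraries (adjusted p = 0.0252), over a range of 0.0252 to 0.343 among all alternatives run. PDK1, a kinase that inhibits pyruvate dehydrogenase, did not pass either, with log2 changes between -0.15 and 0.05.

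The HIF alpha subunits showed no common direction. HIF1A is regulated mainly through protein stability, so its transcript is no measure of HIF activity. In MDA-MB-231 HIF1A was at 206, 198 and 217 CPM with the MDM2 shRNA label and at 302, 289 and 292 CPM with NT shRNA, a fall of -0.51 ± 0.11 (adjusted p = 0.00756). Under the PROTAC it was at 279, 194 and 225 CPM and with DMSO at 337.5, 286 and 277.5 CPM, a fall of -0.37 ± 0.11 (adjusted p = 0.0361), and these groups overlapped. That PROTAC call was lost without DMSO replicate 1, PROTAC replicate 2 or PROTAC replicate 3 and without TMM scaling. In MDA-MB-436 the PROTAC libraries had 161.5, 198 and 179 CPM of HIF1A against 316, 276 and 342 CPM with DMSO (log2 change -0.80 ± 0.21, adjusted p = 0.0131). Libraries labelled MDM2 shRNA had 161, 283 and 281 CPM against 204, 289 and 201 CPM with NT shRNA, which overlapped (adjusted p = 0.833). EPAS1, encoding HIF-2 alpha, did not pass in any comparison, with log2 changes from -0.02 to 0.79, and single libraries stood apart, such as 153 CPM against 61.7 and 63.9 CPM among MDA-MB-436 libraries labelled MDM2 shRNA.

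The 14 other HIF targets were more mixed than the enzymes. In MDA-MB-436, 7 were lower, 2 higher and 5 not passed in each comparison, with median log2 changes of -0.39 with the MDM2 shRNA label and -0.24 with the PROTAC. For MDA-MB-231 libraries, 3 were lower and 2 higher with the MDM2 shRNA label, and 5 lower and 1 higher with the PROTAC, with medians of -0.11 and -0.08. Of all genes tested in MDA-MB-436, 14.4% and 15.1% were called lower and 16% and 17.3% higher. In MDA-MB-231, 11.6% and 11.5% were lower and 11.1% higher in each comparison. The counts of higher genes among these targets are near those shares. Set beside the enzymes, the share called lower in MDA-MB-436 was 14 and 13 of 16 for enzymes and 7 and 7 of 14 for the other targets, and the medians of both classes were below that of genes averaging at least 100 CPM. Several other targets, among them VEGFA, ADM and CA12, averaged under 100 CPM in MDA-MB-436, so those abundant genes are less like them in level. The difference between the classes was not tested. Without TMM scaling the other targets' medians were -0.21 and -0.07 in MDA-MB-436, where the median of all genes was 0.22 and 0.21, and the enzymes' medians were -0.36 and -0.42.

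**Figure D5:**
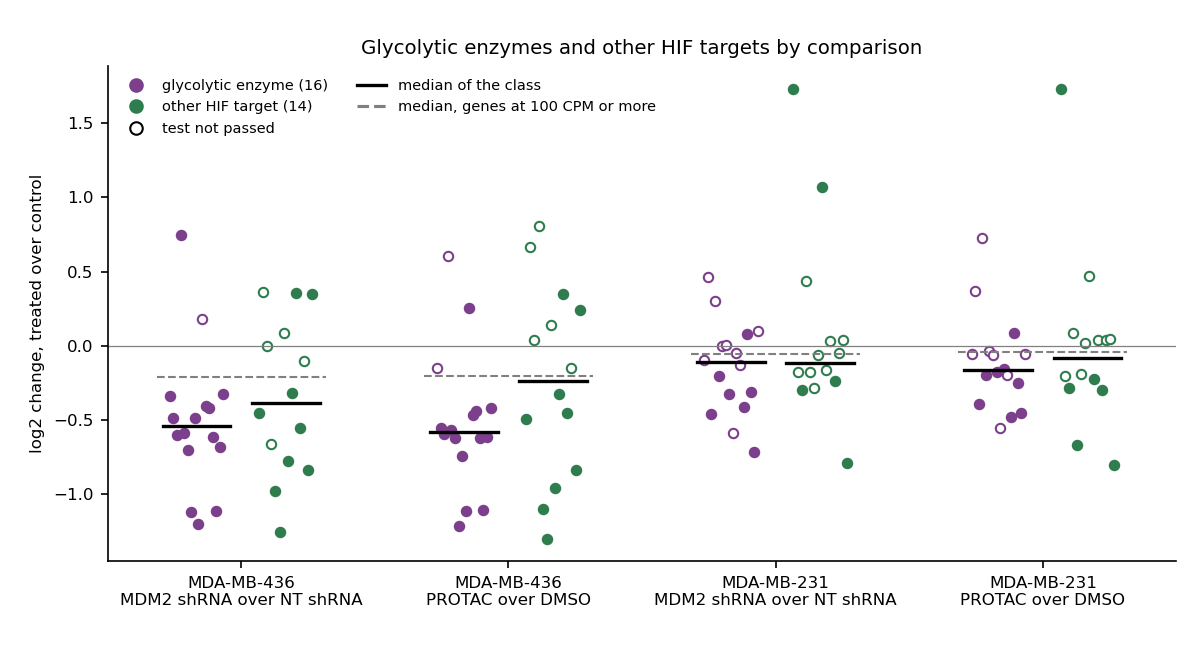
Log2 change (vertical axis) of the 16 glycolytic enzymes (purple) and 14 other HIF targets (green) in the 4 comparisons, filled where the test passed, with class medians (black) and the median of genes averaging at least 100 CPM (dashed). In MDA-MB-436 the enzymes' medians are -0.54 and -0.58 and those of the other targets -0.39 and -0.24, and ADM stands at 1.73 in both MDA-MB-231 comparisons.

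ADM and VEGFA, both secreted vascular factors, moved in opposite directions in the 2 lines. ADM encodes adrenomedullin (chr11:10304680-10307397, plus strand). In MDA-MB-231 it was at 78.5, 79.2 and 68.7 CPM with the MDM2 shRNA label and at 20.8, 23.9 and 23.4 CPM with NT shRNA. It was at 74.5, 66.8 and 72.1 CPM with the PROTAC and at 24.2, 19.1 and 20.8 CPM with DMSO. These were rises of 3.33 and 3.32 times, with log2 changes of 1.73 ± 0.10 in both (adjusted p = 5.15e-07 and 4.89e-07). In MDA-MB-436 ADM fell to 26.0, 22.6 and 24.1 CPM with the MDM2 shRNA label, against 30.4, 32.3 and 38.4 CPM with NT shRNA (log2 change -0.46 ± 0.11). With the PROTAC it fell to 24.8, 22.7 and 20.5 CPM, against 35.3, 32.1 and 27.7 CPM with DMSO (log2 change -0.49 ± 0.11). The call with the MDM2 shRNA label in MDA-MB-436 was lost without NT shRNA replicate 3 and without TMM scaling.

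VEGFA, the main angiogenic growth factor (chr6:43770184-43786487, plus strand), fell in MDA-MB-231. It was at 68.2, 67.8 and 61.0 CPM with the MDM2 shRNA label against 120, 111 and 111 CPM with NT shRNA, a log2 change of -0.79 ± 0.08 (adjusted p = 2.78e-05). PROTAC libraries held VEGFA at 74.7, 76.1 and 64.3 CPM against 120, 121 and 134 CPM with DMSO, a log2 change of -0.80 ± 0.08 (adjusted p = 2.48e-05). In MDA-MB-436 VEGFA was higher, at 56.6, 54.2 and 52.8 CPM with the MDM2 shRNA label against 45.2, 43.1 and 41.6 CPM with NT shRNA (log2 change 0.35 ± 0.08, adjusted p = 0.00633). The PROTAC libraries had 55.0, 55.0 and 56.1 CPM and the DMSO libraries 48.0, 49.7 and 42.6 CPM (log2 change 0.24 ± 0.08, adjusted p = 0.04). No pair of groups overlapped, and the PROTAC call in MDA-MB-436 was lost without any single library but DMSO replicate 2.

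Carbonic anhydrases CA9 and CA12, which handle acid outside the cell, fell in MDA-MB-436. CA12 was at 10.2, 10.4 and 9.80 CPM with the MDM2 shRNA label against 23.8, 22.0 and 14.6 CPM with NT shRNA, and at 9.52, 10.0 and 9.25 CPM with the PROTAC against 23.5, 23.7 and 14.4 CPM with DMSO. Its log2 changes were -0.98 ± 0.21 and -1.10 ± 0.21, and in MDA-MB-231 only the PROTAC change of -0.67 ± 0.10 passed. CA9 was low, at 0.853 to 4.44 CPM in MDA-MB-436, with log2 changes of -1.26 ± 0.25 and -1.30 ± 0.25. The exons of CA9 overlap those of ARHGEF39 on the other strand, whose counts came to 909% of those of CA9, so the source of its reads is uncertain. The same holds in lesser degree for ANKRD37 (UFSP2, 445%), BNIP3L (PNMA2 and a pseudogene, 140%), PFKM (SENP1, 58.4%) and SLC16A3 (CSNK1D, 50.4%), since it is not stated whether strand was used in counting.

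P4HA1 and P4HA2 encode prolyl hydroxylases of collagen. P4HA2 (chr5:132191838-132295315, minus strand) was at 13.4, 14.3 and 12.7 CPM in MDA-MB-436 with the MDM2 shRNA label against 22.7, 25.8 and 24.5 CPM with NT shRNA. With the PROTAC it was at 12.2, 13.2 and 16.2 CPM against 25.7, 24.6 and 24.2 CPM with DMSO. Both log2 changes were -0.84 ± 0.13 (adjusted p = 0.000411 and 0.000369), while in MDA-MB-231 P4HA2 stood at 38.56 to 44.25 CPM over 12 libraries with log2 changes of 0.04 ± 0.06 in both. P4HA1 did not pass in any comparison, with log2 changes from -0.15 to 0.04.

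Of the oxygen sensors, EGLN3 differed between the lines. In MDA-MB-436 it was at 3.92, 4.85 and 3.94 CPM with the MDM2 shRNA label against 8.497, 6.26 and 7.32 CPM with NT shRNA, a log2 change of -0.78 ± 0.16, and the change with the PROTAC was -0.96 ± 0.16. In MDA-MB-231 it was at 2.04, 2.78 and 2.48 CPM with the MDM2 shRNA label against 1.23, 0.927 and 1.31 CPM with NT shRNA (log2 change 1.07 ± 0.30, adjusted p = 0.0255). That call was lost without any of 4 of the 6 libraries (NT shRNA replicates 1 and 2, labelled MDM2 shRNA replicates 2 and 3). EGLN1, the main HIF prolyl hydroxylase, did not pass, with log2 changes from -0.06 to 0.14.

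The mitophagy receptor BNIP3 (chr10:131966455-131982013, minus strand) was at 161, 172 and 165 CPM in MDA-MB-231 with the MDM2 shRNA label against 214, 201 and 198 CPM with NT shRNA (log2 change -0.30 ± 0.05). The fall with the PROTAC in that line was -0.29 ± 0.05, while in MDA-MB-436 the changes were 0.00 ± 0.08 and 0.04 ± 0.08. BNIP3L, its relative, did not pass, and 1 or 2 libraries in some groups stood at 2 or more times the others, such as 135 CPM against 46.7 and 48.2 CPM among NT shRNA libraries of MDA-MB-231. NDRG1, a stress-responsive gene, fell in all 4 comparisons, with log2 changes of -0.56 ± 0.14 and -0.45 ± 0.14 in MDA-MB-436 and -0.24 ± 0.05 and -0.30 ± 0.05 in MDA-MB-231. Its PROTAC call in MDA-MB-436 was lost without DMSO replicate 1, DMSO replicate 2 or PROTAC replicate 3, and 3 of the 4 NDRG1 calls (all but the PROTAC call in MDA-MB-231) were lost without TMM scaling. ERO1A, which oxidises disulfide isomerases in the endoplasmic reticulum, was lower in both MDA-MB-436 comparisons at -0.32 ± 0.08 and -0.33 ± 0.08, and with the PROTAC in MDA-MB-231 at -0.23 ± 0.07. All 3 ERO1A calls were lost without TMM scaling, and that in MDA-MB-231 also without any library but PROTAC replicate 1. KDM3A, a histone demethylase, was higher in MDA-MB-436 at 0.36 ± 0.10 and 0.35 ± 0.10. The first KDM3A call was lost without NT shRNA replicate 2 or labelled MDM2 shRNA replicate 1 or 2, and the second without DMSO replicate 1 or 3. ANKRD37 did not pass in any comparison.

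TXNIP was the only one of the 40 genes called higher in all 4 comparisons (chr1:145992435-145996600, minus strand). In MDA-MB-436 it was at 1126, 1222 and 1157 CPM with the MDM2 shRNA label and at 449.7, 443 and 454.5 CPM with NT shRNA. It was at 1180, 1224 and 1066 CPM with the PROTAC and at 479, 440.1 and 441 CPM with DMSO. These were 2.63 and 2.54 times the control levels, with log2 changes of 1.40 ± 0.06 and 1.35 ± 0.06 (adjusted p = 3.36e-08 and 4.07e-08). In MDA-MB-231 it was at 194.5, 173 and 182 CPM with the MDM2 shRNA label and at 145, 136 and 135.5 CPM with NT shRNA. With the PROTAC it was at 195.4, 195.5 and 183 CPM and with DMSO at 134, 130.1 and 133 CPM. No pair of groups overlapped, and the log2 changes were 0.40 ± 0.05 and 0.53 ± 0.05 (adjusted p = 0.000189 and 2.72e-05). Among 6 other genes of the MondoA and arrestin-domain group, 3 were higher in each MDA-MB-436 comparison, 1 and 2 in MDA-MB-231, and none was lower, where 16% and 17.3% of all genes were higher in MDA-MB-436 and 11.1% in each MDA-MB-231 comparison. ARRDC4, another MondoA target that lowers glucose uptake, averaged 89.4 ± 3.70 CPM with the MDM2 shRNA label and 40.75 ± 2.15 CPM with NT shRNA in MDA-MB-436 (log2 change 1.15 ± 0.06). With the PROTAC ARRDC4 averaged 97.98 ± 1.51 CPM and with DMSO 44.1 ± 0.998 CPM. In MDA-MB-231 ARRDC4 was not called in either comparison. Those called there were its relative ARRDC3 in both comparisons, at 0.77 ± 0.10 and 0.61 ± 0.10, and MLX with the PROTAC, at 0.50 ± 0.14.

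Over the 40 genes, 24 were lower, 4 higher and 12 not passed in MDA-MB-436 with the MDM2 shRNA label, and 25 lower, 4 higher and 11 not passed with the PROTAC. In MDA-MB-231 the counts were 13 lower, 4 higher and 23 not passed with the MDM2 shRNA label, and 15 lower, 4 higher and 21 not passed with the PROTAC. As shares of 40, the counts of higher genes lie near or below the percentages of all genes given above, and those of lower genes lie above them. By levels in single libraries, the groups did not overlap for 7 genes higher and 25 lower in MDA-MB-436 with the MDM2 shRNA label, against 26.1% and 25.2% of all genes, and for 6 higher and 26 lower with the PROTAC, against 21.3% and 20.3%. In MDA-MB-231 they did not overlap for 6 higher and 15 lower with the MDM2 shRNA label, against 19.7% and 19.3%, and for 5 higher and 17 lower with the PROTAC, against 19.2% and 19.9%. HK2, PFKP, GAPDH, PGK1, ENO1, PKM, SLC2A1, SLC16A3 and NDRG1 were called lower in all 4 comparisons. EPAS1, SLC16A1, PFKFB3, PDK1, BNIP3L, EGLN1, P4HA1 and ANKRD37 did not pass in any. With each of the 6 libraries of the MDA-MB-436 PROTAC comparison left out in turn, PROTAC replicate 3 included, 23 to 25 genes were called lower.

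The PROTAC and the hairpin label were compared within each line by testing the difference of their effects. None of the 40 genes passed in either line, against 0.00484% of all genes tested in MDA-MB-231 and 0.00441% of those tested in MDA-MB-436. At an unadjusted p under 0.05 were CA12, HK2 and PKM in MDA-MB-231 and HIF1A and SLC2A3 in MDA-MB-436, against 977 and 1230 genes of all tested, and DESeq2 called 38 and 35 genes overall but none of the 40. For the enzymes the PROTAC effect minus the effect of the MDM2 shRNA label ran from -0.15 to 0.42 in MDA-MB-231 and from -0.26 to 0.19 in MDA-MB-436 on the log2 scale. The 95% intervals reached from -0.68 to 1.53 and from -0.82 to 0.60, so differences of up to that size in single enzymes cannot be told from none.

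The difference between lines was tested in a model of all 24 libraries. For the MDM2 shRNA label, 10 genes had a lower change in MDA-MB-436 than in MDA-MB-231 and 2 a higher, where 9.77% and 9.94% of all 24719 genes tested did. For the PROTAC, 11 were lower and 4 higher, against 10.5% and 11.8% of all genes. Among the 2434 genes averaging at least 100 CPM, 695 had a lower and 269 a higher change in MDA-MB-436 for the MDM2 shRNA label. With the PROTAC, 780 of these abundant genes were lower and 329 higher. As shares, the lower counts of the listed genes do not exceed those of this class, although some listed genes are less abundant. Under both treatments, HK1, GPI, ALDOC, PGK1, PGAM1, ADM, EGLN3 and P4HA2 had lower and VEGFA and TXNIP higher changes in MDA-MB-436. The largest difference was that of ADM, at -2.21 ± 0.16 with the MDM2 shRNA label and -2.22 ± 0.16 with the PROTAC (adjusted p = 7.62e-09 and 6.37e-09). PFKP, ENO1 and PKM, which fell in both lines, gave differences of -0.02 ± 0.10, -0.16 ± 0.11 and 0.02 ± 0.11 with the MDM2 shRNA label, none of which passed. LDHA did not pass either, at -0.64 ± 0.30 and -0.56 ± 0.30.

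The control levels of these genes already differed between the lines. Taking NT shRNA and DMSO libraries together, 18 of the 40 were higher and 16 lower in MDA-MB-436 than in MDA-MB-231, where 35.9% and 30.9% of all genes were. SLC16A1 was 503 times higher in MDA-MB-436 (log2 difference 8.97 ± 0.24), ALDOC 6.53 times, EGLN3 5.58 times, TXNIP 3.33 times and ENO2 3.08 times. SLC2A1, SLC16A3 and PFKFB4 stood at 0.333, 0.314 and 0.312 times their MDA-MB-231 level, and PKM at 0.488 times. Per kilobase of exon, the most abundant enzyme was GAPDH in both lines, at 1582 and 1419 CPM per kilobase in NT shRNA and DMSO libraries of MDA-MB-436 and at 1247 and 1226 in those of MDA-MB-231. ENO1 followed in MDA-MB-231 at 753 and 728 CPM per kilobase. In MDA-MB-436, TPI1 and ENO1 stood together, at 470 and 470 with NT shRNA and 426 and 404 with DMSO. This order depends on the annotated exon lengths. Without division by length, ENO1 exceeded GAPDH in MDA-MB-231, at 3972 against 3719 CPM with NT shRNA and 3841 against 3655 CPM with DMSO.

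Other genes of the pathways were listed apart from the 40. Of 23 further glycolysis and pyruvate genes tested in MDA-MB-436, 8 were lower and 5 higher with the MDM2 shRNA label, and 9 lower and 7 higher with the PROTAC. Of 22 tested in MDA-MB-231, 2 were lower and 6 higher with the MDM2 shRNA label, and 2 lower and 7 higher with the PROTAC. Over all genes, 14.4% and 15.1% were lower and 16% and 17.3% higher in MDA-MB-436, and 11.6% and 11.5% lower and 11.1% and 11.1% higher in MDA-MB-231, so the lower counts of MDA-MB-231 are near that background. ENO3, the muscle enolase, averaged 36.8 ± 0.909 CPM with the MDM2 shRNA label and 11.15 ± 0.404 CPM with NT shRNA in MDA-MB-436, and 31.1 ± 3.87 CPM with the PROTAC and 8.76 ± 1.49 CPM with DMSO. The groups lie far apart, and both ENO3 changes passed (log2 1.74 ± 0.12 and 1.82 ± 0.12). The glucose transporter SLC2A6 rose to 240.3 ± 4.23 CPM with the MDM2 shRNA label, against 120.6 ± 5.83 CPM with NT shRNA, and to 238.7 ± 22.3 CPM with the PROTAC, against 104 ± 3.27 CPM with DMSO. PDHB and PDP1, a subunit and an activating phosphatase of pyruvate dehydrogenase, fell in MDA-MB-436 with log2 changes from -1.04 to -0.79. MPC2, a subunit of the mitochondrial pyruvate carrier, was higher in MDA-MB-231 at 0.47 ± 0.06 and 0.60 ± 0.06, and FBP1, which runs a glycolytic step in reverse, was lower there at -0.57 ± 0.07 and -0.58 ± 0.07. MPC2 was also called higher in MDA-MB-436 with the PROTAC, at 0.46 ± 0.10.

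Of 33 further hypoxia-responsive genes tested in MDA-MB-436, 11 were lower and 6 higher with the MDM2 shRNA label, and 10 lower and 5 higher with the PROTAC. For MDA-MB-231 libraries, 10 were lower and 6 higher with the MDM2 shRNA label, and 11 lower and 5 higher with the PROTAC. Against the same percentages of all genes, the higher counts of MDA-MB-436 are near the background. LOXL2, a collagen cross-linking oxidase, fell in all 4 comparisons. It averaged 96.2 ± 4.21 CPM with the MDM2 shRNA label and 263.9 ± 12.4 CPM with NT shRNA in MDA-MB-436 (log2 change -1.44 ± 0.07), and in MDA-MB-231 232.2 ± 7.36 CPM with the MDM2 shRNA label and 384.8 ± 1.38 CPM with NT shRNA (log2 change -0.73 ± 0.04). BHLHE40, a hypoxia-induced repressor, moved in the directions of VEGFA: it was higher in MDA-MB-436 at 0.45 ± 0.06 and 0.36 ± 0.06 and lower in MDA-MB-231 at -0.59 ± 0.05 and -0.57 ± 0.05. CXCR4, a chemokine receptor, was higher in MDA-MB-231 at 0.73 ± 0.06 and 0.89 ± 0.06, as ADM was, and DDIT4, an inhibitor of mTOR signalling, fell there to 28.9 ± 1.25 CPM with the MDM2 shRNA label, against 57.5 ± 0.544 CPM with NT shRNA. Unlike ADM, CXCR4 was also called higher in MDA-MB-436 with the PROTAC, at 1.52 ± 0.29. Its level there was low, at 1.551 CPM against 0.5382 CPM with DMSO.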

How the data were processed

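The values are gene counts per library, 24 tables of whole numbers deposited by the authors without normalization. Reads were processed with cutadapt 2.4, HISAT2, StringTie and edgeR against GRCh38, per the submitters' processing notes; whether strand was used in counting is not given in the sources used here. Counts of 4 outnumber counts of 3 and of 5 in every library, and how this arose was not tested. Totals ran from 33413988 to 174744841 counts.

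Each line's 12 libraries were fitted in 1 model with edgeR 4.0.16 (R 4.3.3): filterByExpr, TMM scaling, quasi-likelihood test and Benjamini-Hochberg adjustment over all genes at 0.05, with 8 residual degrees of freedom. Line differences and control levels came from a model of all 24 libraries. SE is the log2 change divided by the root of F. Levels are CPM with TMM over 24 libraries. Values per kilobase divide CPM by the annotated exon length of a gene, not by that of the transcripts expressed. The size of isoform shares and the order of genes per kilobase therefore depend on the annotation. Alternatives used DESeq2 1.42.0 and limma 3.58.1 (voom), other scalings and filters, counts divided by 4, a replicate block and each library left out. On simulated counts the PROTAC fit of MDA-MB-436 recovered 36% of genes changed 2-fold and 60% of those changed 4-fold. False ones made up 7.37% of its calls, above the 0.05 aimed at. Over all comparisons simulated, false ones made up 2.2 to 7.37% of calls. Each was a single run with 200 changed genes, here among 22663, whereas 7334 genes were called in the data. Neither the recovery nor the false share of the simulation therefore need hold for the data.

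The genes, lists and tests were chosen with earlier results of these data known. All 40 listed genes are named, as is MDM2, and genes of the other lists come from the up to 3 higher and 3 lower with the smallest adjusted p in each treatment comparison. The class of genes averaging at least 100 CPM was set after the data were seen. Gene loci are from GENCODE 29 and promoter sequences from RefSeq (GRCh38.p14).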

Additional observations from a re-analysis of the deposited data

Results flagged for a closer look

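Each result here is a gene whose treatment effect differed between the lines by the test of the difference itself, in edgeR's quasi-likelihood model of all 24 libraries with Benjamini-Hochberg adjustment over all genes. Values are the log2 change in MDA-MB-436 minus that in MDA-MB-231. Among glycolytic enzymes, with the MDM2 shRNA label, the difference was -1.14 for HK1, -0.97 for ALDOC, -0.82 for PGK1, -0.72 for GPI and -0.71 for PGAM1. With the PROTAC it was -1.16 for HK1, -0.92 for ALDOC, -0.86 for PGK1, -0.70 for PGAM1, -0.58 for GPI and -0.56 for HK2. PFKL differed the other way with the PROTAC, at 0.42.

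Among transporters and regulators, SLC16A3 differed by -0.74 with the MDM2 shRNA label, and SLC2A3 by -1.47 and PFKFB4 by -0.68 with the PROTAC. Among other HIF targets, with the MDM2 shRNA label, the difference was -2.21 for ADM, -1.87 for EGLN3, -0.89 for P4HA2, -0.81 for CA12 and 1.12 for VEGFA. With the PROTAC it was -2.22 for ADM, -1.42 for EGLN3, -0.89 for P4HA2, 0.33 for BNIP3 and 1.04 for VEGFA. TXNIP differed by 0.98 with the MDM2 shRNA label and by 0.82 with the PROTAC. The CA12 difference was lost without 1 of 3 libraries (labelled MDM2 shRNA replicate 1 of MDA-MB-231, NT shRNA replicates 1 and 2 of MDA-MB-436), and the BNIP3 difference without any of 7. Groups of 3 were not searched for libraries that stand apart.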

How the results depend on the processing

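No called change of the 40 genes turned its direction under any alternative run. Counts of calls that moved by over 1.5 times follow, and the cause was not tested. Without TMM scaling, genes called higher in MDA-MB-436 with the MDM2 shRNA label numbered 7 and other HIF targets called lower 4, and enzymes called lower in MDA-MB-231 with the PROTAC numbered 4, as in one fit of 24 libraries. That setting moved the share of higher calls among all genes from 48.8, 49.1, 52.5 and 53.4% to 68, 65.6, 72.8 and 70.9% (with the label, then the PROTAC, first for MDA-MB-231). Genes called higher with the PROTAC numbered 2 in MDA-MB-231 with its 6 libraries alone and 2 in MDA-MB-436 with no filter. Genes with a higher change in MDA-MB-436 under the MDM2 shRNA label numbered 4 with RLE factors, with a filter of 1 CPM in 3 libraries or with DESeq2, and 5 without scaling. Over all genes, the difference of PROTAC and shRNA-label effects gave 38 calls in MDA-MB-231 by DESeq2 and 35 in MDA-MB-436, and in MDA-MB-231 0 with the replicate block and 2 in one fit of 24 libraries.

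With single libraries left out, calls among the 40 in MDA-MB-231 numbered 14 to 15 with the MDM2 shRNA label (higher 2 to 3) and 12 to 17 with the PROTAC (higher 2 to 3, enzymes lower 4 to 7). In MDA-MB-436, higher calls numbered 2 to 4 with the label and 1 to 4 with the PROTAC. Higher line differences under the label numbered 2 to 4, and treatment differences over all genes 0 to 6 in MDA-MB-231 and 1 to 25 in MDA-MB-436. Among values that were called or at least 0.2 in size on the log2 scale, the only ones followed, signs turned for uncalled ones: ENO2 in MDA-MB-231 (-0.110 to 0.668) and EPAS1 in MDA-MB-436 (-0.0858 to 0.712) without labelled MDM2 shRNA replicate 3, BNIP3L with the PROTAC in MDA-MB-436 (-0.0952 to 1.11) and its line difference (-0.141 to 0.992) without PROTAC replicate 3, and the label's line differences of SLC2A3 (-0.426 to 0.0162, without MDA-MB-436 NT shRNA replicate 2) and SLC16A1 (-0.0439 to 0.812, without MDA-MB-231 NT shRNA replicate 1).

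Replicate numbers did not pair the libraries: same-numbered deviations correlated at -0.098 to 0.059. With the replicate block, lower calls with the MDM2 shRNA label numbered 12 (MDA-MB-231) and 23 (MDA-MB-436), and with the PROTAC 14 (MDA-MB-231) and 25 (MDA-MB-436). Under the block PFKFB3 passed in MDA-MB-436 with the label (0.95, adjusted p = 0.0362). Low counts limit CA9, EGLN3, ANKRD37 and, in MDA-MB-231, SLC16A1, which with the label had no value there under the 1 CPM filter or with counts divided by 4.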
